A study of Mus musculus with 11 samples.

Results

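The protein kinase C family was examined in hippocampal RNA of mice treated with AC-T chemotherapy. The members were the 8 genes Prkca, Prkcb, Prkcd, Prkce, Prkch, Prkci, Prkcq and Prkcz, found by their symbols among 17118 genes in the deposited table. All 8 had counts above 0 in all 11 libraries and entered the test, which covered 15353 genes.

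The samples were punches of 0.2 mm taken from the hippocampus in frozen brain slices of female C57/BL6 mice, 12 weeks old when dosing began. The AC-T group (5 libraries, from mice 501, 502, 503, 600 and 602) received 8 weekly intraperitoneal injections: 4 of doxorubicin (A, 2 mg/kg) with cyclophosphamide (C, 50 mg/kg), then 4 of paclitaxel (T, 5 mg/kg). The saline group (6 libraries, from mice 201, 202, 203, 300, 301 and 302) received 0.9% sodium chloride in place of the drugs. All samples carry a one-month label, no tumour is mentioned, and the mice share 1 wild-type strain. Mice whose numbers begin alike are called a series here: series 5 and 6 in AC-T, 2 and 3 in saline. The labels do not say what the series stand for, and no series holds both treatments, so series and treatment cannot be told apart.

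Protein kinase C enzymes are serine/threonine kinases that act downstream of receptors coupled to Gq. Phospholipase C cleaves a membrane lipid into diacylglycerol, which recruits the kinase to the membrane, and inositol trisphosphate, which releases calcium. The conventional class (which includes Prkca and Prkcb) needs both diacylglycerol and calcium, a calcium-independent class (Prkcd, Prkce, Prkch and Prkcq) needs diacylglycerol only, and the atypical class (Prkci and Prkcz) needs neither. In the hippocampus the family is known for its part in transmitter release and synaptic plasticity, and Prkcd is known as a gene of high expression in thalamic neurons.

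Of the 8 members, 4 passed the test at an adjusted p under 0.05 (edgeR quasi-likelihood test, Benjamini-Hochberg over all genes), where 8.47% of all genes passed. Prkca and Prkcb were higher after AC-T, where 4.89% of all genes were called higher, and Prkcd and Prkch were lower, where 3.58% were called lower. Without the adjustment 7 of the 8 had a p under 0.05, against 24.9% of all genes. The median log2 fold change was 0.13 over the 8 members and -0.0029 over all genes. In all, 751 genes were called higher and 550 lower. With upper-quartile scaling the numbers were 593 and 663, and with library totals 487 and 548, while the same 4 members passed under both.

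The start-site sequences of 3 called members are shown, with a window at 1 of the 2 inner starts of Prkcz that alone held a cyclic AMP response element. Each window runs from 250 bases before to 50 bases after a start site annotated by RefSeq on GRCm38.p6, and the table held 9 windows for 6 of the 8 members. Capitals mark the motifs searched on both strands, which were GGGCGG (a GC box), CAGCTG (an E-box), TGACGTCA (a cyclic AMP response element) and CTTTGAT (a TCF/LEF motif). None of these overlapped another in the windows shown. The Prkca window is chr11:108343839-108344138 on the minus strand, the Prkcb window chr7:122288875-122289174 on the plus strand, the upstream Prkcd window chr14:30626159-30626458 on the minus strand, and the Prkcz window chr4:155345740-155346039 on the minus strand.
Prkca: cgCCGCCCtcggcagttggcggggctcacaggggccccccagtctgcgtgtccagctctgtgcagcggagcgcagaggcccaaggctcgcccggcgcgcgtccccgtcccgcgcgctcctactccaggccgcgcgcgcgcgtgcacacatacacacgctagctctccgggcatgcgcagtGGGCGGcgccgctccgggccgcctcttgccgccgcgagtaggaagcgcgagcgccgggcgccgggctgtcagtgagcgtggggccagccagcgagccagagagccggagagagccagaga
Prkcb: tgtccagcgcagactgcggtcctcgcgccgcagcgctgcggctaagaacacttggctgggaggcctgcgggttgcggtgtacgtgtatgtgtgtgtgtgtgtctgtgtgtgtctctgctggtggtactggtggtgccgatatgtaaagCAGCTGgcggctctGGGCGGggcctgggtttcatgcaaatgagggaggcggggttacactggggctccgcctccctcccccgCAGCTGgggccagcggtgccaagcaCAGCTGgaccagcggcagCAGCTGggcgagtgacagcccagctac
Prkcd: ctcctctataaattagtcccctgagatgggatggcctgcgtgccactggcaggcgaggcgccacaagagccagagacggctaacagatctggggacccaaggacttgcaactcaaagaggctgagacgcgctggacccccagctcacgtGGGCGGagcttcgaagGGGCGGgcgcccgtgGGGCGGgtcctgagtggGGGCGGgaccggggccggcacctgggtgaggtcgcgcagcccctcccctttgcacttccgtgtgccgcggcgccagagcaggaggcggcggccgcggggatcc
Prkcz: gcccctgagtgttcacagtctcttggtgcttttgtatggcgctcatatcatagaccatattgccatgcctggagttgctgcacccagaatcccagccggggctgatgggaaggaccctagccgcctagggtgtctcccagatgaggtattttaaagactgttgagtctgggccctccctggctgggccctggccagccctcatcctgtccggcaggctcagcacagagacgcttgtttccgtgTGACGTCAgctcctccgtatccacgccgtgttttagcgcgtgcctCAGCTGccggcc
The GC box stood 4 times in the Prkcd window, 2 times in that of Prkca and 1 time in that of Prkcb, and was present in 35.7% of all 32851 windows of this length. The E-box stood 4 times in the Prkcb window and 0 times in the Prkca and Prkcd windows shown, while a second Prkcd window further downstream held 2. It was present in 16.3% of all windows. The cyclic AMP response element was present in the Prkcz window alone among the 9, against 1.79% of all windows. The TCF/LEF motif, present in 3.73% of all windows, was in none of the 9. These matches are letters in a window and describe no binding.

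The conventional members were both higher after AC-T. Prkca, a kinase of postsynaptic and presynaptic sites, stood at 210, 241, 215, 217 and 221 CPM (counts scaled to libraries of equal size) in AC-T 501, 502, 503, 600 and 602. In saline it ranged from 130 to 191 CPM with a median of 173. Every AC-T library lay above every saline library, a separation found for 7.52% of all genes. The means were 221 ± 11.7 CPM after AC-T and 164 ± 24.3 CPM after saline (SD, n = 5 and 6), a log2 fold change of 0.43 ± 0.094 (SE; edgeR adjusted p = 0.0206). Without AC-T 502, the highest AC-T library, Prkca did not pass (adjusted p = 0.0600). It also lost the call without AC-T series 5 or 6 (adjusted p = 0.155 and 0.0820) and with series as a random effect (adjusted p = 0.0751), and passed against saline series 2 or 3 alone (0.0129 and 0.0416).

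Prkcb, which gives 2 splice forms abundant in forebrain neurons, stood at 280, 270, 255, 261 and 283 CPM in AC-T 501, 502, 503, 600 and 602. Its saline values ran from 167 to 231 CPM with a median of 187. The groups did not overlap. The means were 270 ± 11.9 and 194 ± 28.2 CPM after AC-T and saline (SD, n = 5 and 6), a log2 fold change of 0.47 ± 0.089 (SE; edgeR adjusted p = 0.0118), or 1.39-fold. The saline libraries of series 2 lay at 167 to 176 CPM and those of series 3 at 198 to 231 CPM, so Prkcb was nearer to AC-T in series 3. The log2 fold change was 0.65 against series 2 alone and 0.31 against series 3 alone, and it passed in both (adjusted p = 0.000953 and 0.0412). Without AC-T series 5 or 6 it did not (adjusted p = 0.108 and 0.0595).

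The widest differences were the falls of Prkcd and Prkch, of the calcium-independent class. In the same class Prkce (log2 fold change 0.28) and Prkcq (-0.042) did not pass. Prkcd, a kinase studied in apoptosis and highly expressed in thalamic relay neurons, stood at 156, 78.0, 87.1, 96.7 and 135 CPM in AC-T 501, 502, 503, 600 and 602. Its saline values ran from 173 to 366 CPM with a median of 248. AC-T 501 was the highest of its group and still lay below saline 300, the lowest saline library. The means were 111 ± 33.4 CPM after AC-T and 256 ± 68.4 CPM after saline (SD, n = 5 and 6). Prkcd thus fell to 0.432 of its saline level, by 1.21 ± 0.22 on the log2 scale (SE; edgeR adjusted p = 0.0108), a size reached in either direction by 1.38% of all genes.

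The saline series differed in Prkcd as well. Series 2 held 277 to 366 CPM and series 3 held 173 to 219 CPM, without overlap, while AC-T series 5 (78.0 to 156 CPM) and 6 (96.7 to 135 CPM) overlapped. Against series 2 alone the log2 fold change was -1.49 (adjusted p = 0.00708), and against series 3 alone it was -0.87 and did not pass (adjusted p = 0.0683). The call was also lost without AC-T series 5 (adjusted p = 0.0807) or series 6 (adjusted p = 0.0522).

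Prkch, known from epithelial and endothelial cells, was a low member that fell. It had 8.97, 6.64, 7.95, 9.55 and 10.01 CPM in AC-T 501, 502, 503, 600 and 602, from 192 to 320 counts. Saline libraries had 10.3 to 15.6 CPM with a median of 12.4, from 268 to 420 counts. The groups did not overlap, though AC-T 602 and saline 202 lay close together. The means were 8.62 ± 1.35 and 12.9 ± 2.09 CPM after AC-T and saline (SD, n = 5 and 6), a log2 fold change of -0.58 ± 0.13 (SE; edgeR adjusted p = 0.0212). The call was lost against either saline series alone (adjusted p = 0.0629 for series 2 and 0.0634 for series 3), without AC-T series 5 (0.198) and with series as a random effect (0.1001). Of 6 endothelial markers, 1 was called lower and 0 higher, and their summed level was 181 to 232 CPM after AC-T and 218 to 237 CPM after saline. All 6 had a log2 fold change below 0, and 3 had an unadjusted p under 0.05 in edgeR, where 24.9% of all genes had one. The part of these markers in the Prkch result was not tested.

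Prkce, a kinase of axons and presynaptic terminals, was the member with the highest CPM. It had 474, 545, 455, 469 and 520 CPM in AC-T 501, 502, 503, 600 and 602, against 332 to 459 CPM with a median of 411 in saline. The groups overlapped at AC-T 503 and saline 201. The log2 fold change of 0.28 ± 0.091 (SE) did not pass (edgeR adjusted p = 0.0770). It passed with DESeq2 (adjusted p = 0.0219), where 16.7% of all genes passed. With limma-voom (adjusted p = 0.0702) and with series as a random effect (adjusted p = 0.225) it did not.

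Prkcq, best known as the kinase of T cell receptor signalling, had 17.9, 13.8, 16.9, 22.8 and 18.9 CPM in AC-T 501, 502, 503, 600 and 602. In saline it ran from 13.04 to 31.2 CPM with a median of 16.1. Saline 300 alone held the 31.2 CPM, and the other 5 saline libraries stood between 13.04 and 19.4 CPM. The log2 fold change was -0.042 ± 0.21 (SE; edgeR adjusted p = 0.931), and without saline 300 it was 0.16 (adjusted p = 0.534). Of 7 T cell markers 2 were analysed here, and edgeR called 0 of them, with 0 at an unadjusted p under 0.05. Their sum was 1.33 to 6.06 CPM after AC-T and 1.04 to 3.34 CPM after saline, and Cd4 was listed at 0 in 6 libraries and Lck in 2.

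The atypical members had small differences that did not pass. Prkci, a kinase of cell polarity complexes, had 47.3, 51.8, 51.9, 47.5 and 49.8 CPM in AC-T 501, 502, 503, 600 and 602, against 41.1 to 47.9 CPM with a median of 44.5 in saline. The groups overlapped narrowly, and the log2 fold change was 0.15 ± 0.047 (SE; edgeR adjusted p = 0.0718). Like Prkce it passed with DESeq2 (adjusted p = 0.0288), and not with limma-voom (adjusted p = 0.0749) or with series as a random effect (adjusted p = 0.234).

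Prkcz encodes both a full-length kinase and, from an inner start, the brain form PKMzeta, which lacks the regulatory part. The table gives 1 value per gene, so these forms were not separated. It had 182, 172, 178, 164 and 163 CPM in AC-T 501, 502, 503, 600 and 602, against 148 to 166 CPM with a median of 160 in saline. The log2 fold change was 0.11 ± 0.045 (SE; edgeR adjusted p = 0.141). The overlap came from AC-T 600 and 602, since series 5 stood at 172 to 182 CPM, above every saline library.

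**Figure D1:**
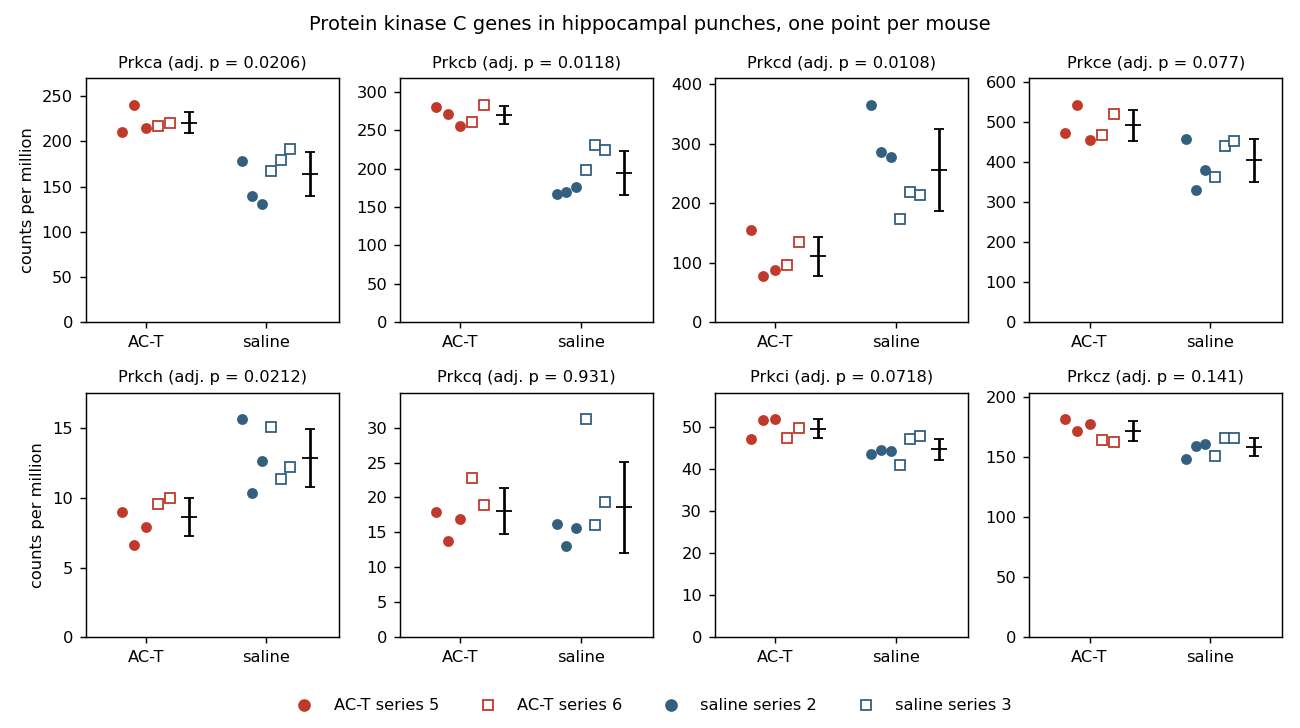
CPM of the 8 members (vertical axes, linear from 0) in each AC-T and saline library, 1 point per mouse, with the mean and SD at the right of each group and the series shown by the symbol. All AC-T points of Prkca and Prkcb lie above the saline points, all AC-T points of Prkcd and Prkch lie below them, and Prkcq has 1 high saline library at 31.2 CPM.

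Levels of different genes were compared per kilobase of the longest protein-coding transcript in GENCODE M21. After AC-T the order was Prkcb (92.7 ± 4.10 CPM per kilobase, SD, n = 5), Prkce (78.8 ± 6.06), Prkcz (42.0 ± 2.03), Prkcd (38.8 ± 11.7) and Prkca (26.2 ± 1.40). After saline it was Prkcd (89.7 ± 24.0 CPM per kilobase, SD, n = 6), Prkcb (66.7 ± 9.68), Prkce (64.8 ± 8.52), Prkcz (38.8 ± 1.82) and Prkca (19.5 ± 2.89). Prkci, Prkcq and Prkch followed in that order in both groups, with 10.5 ± 0.475, 5.04 ± 0.909 and 2.43 ± 0.380 after AC-T, and 9.52 ± 0.525, 5.19 ± 1.81 and 3.64 ± 0.588 after saline. Prkcd overlapped in level with Prkcz and with Prkca after AC-T, and in AC-T 502 it lay below Prkca (a ratio of 0.956). After saline Prkcd, Prkcb and Prkce overlapped, as did Prkcq and Prkch. The order depends on the length used. Prkci and Prkcz have annotated transcripts with a median length of 614 and 837 bases, against 4708 and 4083 for the longest. Divided by such median lengths, in CPM per kilobase, the order after AC-T was Prkcz (205), Prkce (105), Prkcb (98.7), Prkci (80.9), Prkcd (49.9) and Prkca (41.4). After saline it was then Prkcz (189), Prkcd (116), Prkce (86.0), Prkci (73.0), Prkcb (71.0) and Prkca (30.8).

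As a share of the summed level per kilobase of the 8 members, Prkcd made up 9.28% to 17.4% in AC-T libraries and 22.8% to 38.3% in saline libraries. Prkcb made up 30.7% to 31.6% after AC-T and 17.2% to 25.9% after saline. With the median transcript lengths the shares were 5.96% to 11.4% after AC-T and 14.9% to 26.8% after saline for Prkcd, and 16.2% to 17.2% after AC-T and 9.95% to 14.2% after saline for Prkcb. The ratio of Prkcd to Prkcb within a library, which no scaling between libraries can move, was 0.295 to 0.568 after AC-T and 0.892 to 2.23 after saline. Every AC-T library was already below every saline library for Prkcd and above it for Prkcb. This ratio therefore had to separate the groups and is no further result. The ratio of Prkcb to Prkca overlapped, at 3.54 ± 0.237 after AC-T and 3.44 ± 0.405 after saline (SD, n = 5 and 6). The summed CPM of the 8 members was 1268 to 1400 after AC-T and 1141 to 1394 after saline.

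**Figure D2:**
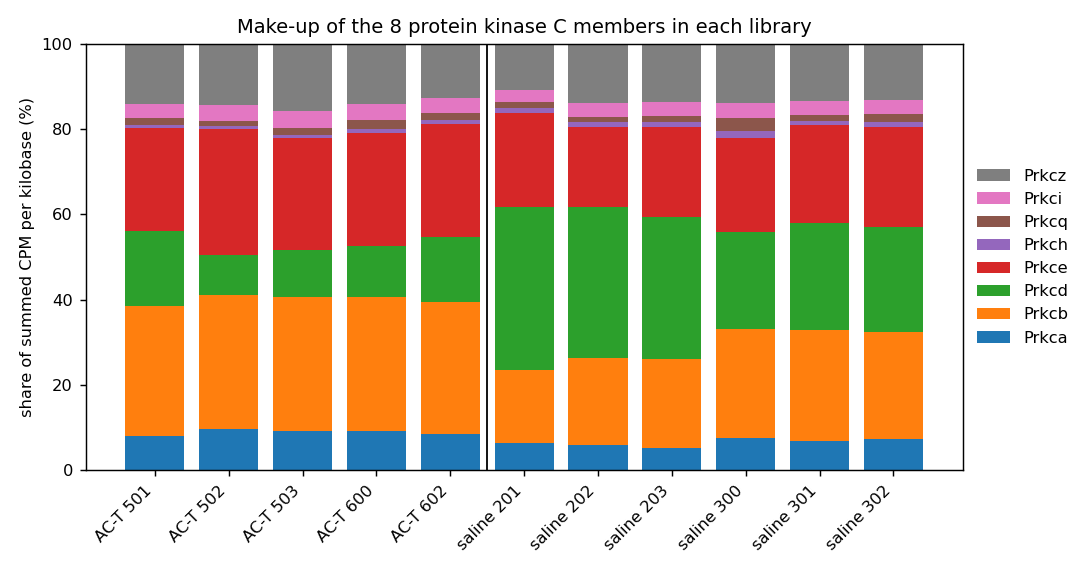
Share of the summed CPM per kilobase (vertical axis, percent) taken by each of the 8 members in each library, with AC-T libraries left of the line and saline libraries right of it. The Prkcd part is 9.28% to 17.4% after AC-T and 22.8% to 38.3% after saline, and is wider in saline 201, 202 and 203 than in saline 300, 301 and 302.

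Markers of the thalamus, of CA1 within the hippocampus and of the neocortex differed between the same libraries. Of 14 thalamic markers (Prkcd not among them), 13 were called lower after AC-T, and all of these 13 had groups without overlap. Their summed level was 630 to 865 CPM after AC-T and 1143 to 1621 CPM after saline. Gbx2, the remaining one, was listed at 0 in 1 library. The genes with the smallest p were Adarb1, an RNA-editing enzyme (279 ± 33.3 against 471 ± 42.2 CPM, edgeR adjusted p = 0.00125), and Amotl1, an angiomotin (62.3 ± 11.2 against 117 ± 10.96 CPM, adjusted p = 0.00192; AC-T against saline, SD, n = 5 and 6). Of 8 CA1 markers, 1 was called higher, with sums of 508 to 662 CPM after AC-T and 139 to 432 CPM after saline. All 8 had a log2 fold change above 0, 6 had an unadjusted p under 0.05 in edgeR and 3 had groups without overlap. Of all genes, 24.9% had such a p and 7.52% had such groups. Of 9 neocortical markers, 5 were called higher and 1 lower, with sums of 336 to 382 CPM after AC-T and 238 to 342 CPM after saline.

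With the thalamic score (the mean log2 CPM of the 14 markers) as a covariate, the log2 fold change of Prkcd was -0.034 ± 0.31 (SE; edgeR adjusted p = 0.989). That of Prkch was -0.33 ± 0.29, that of Prkca 0.17 ± 0.21 and that of Prkcb 0.18 ± 0.19 (SE; lowest adjusted p = 0.911), so none of the 4 passed. With the dissection component (the first principal component of the thalamic, hippocampal and neocortical markers) in its place, the log2 fold change was -0.71 ± 0.34 for Prkcd, -0.19 ± 0.19 for Prkch, 0.43 ± 0.18 for Prkca and 0.24 ± 0.14 for Prkcb (SE; lowest edgeR adjusted p = 0.640). The value of Prkca was thus close to that without a covariate while its SE was larger. Prkca alone of the 8 members had an unadjusted p under 0.05 in edgeR (0.0330), as had 1173 of all 15353 genes. With the thalamic score 1 of all 15353 genes passed in edgeR and 768 had an unadjusted p under 0.05, of which 0 were members. At so small a share, 0 of 8 says little about the members. The score did not overlap between the groups, at 4.21 to 5.03 after AC-T and 5.38 to 6.14 after saline. Over the libraries with group means removed, r with the score was 0.79 for Prkcd, -0.50 for Prkcb, -0.41 for Prkca and 0.29 for Prkch, as a description over 11 libraries that differ in depth. The sign for Prkcb was positive among AC-T and negative among saline libraries. In such bulk tissue, fewer cells of a type and less RNA per cell cannot be told apart.

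**Figure D3:**
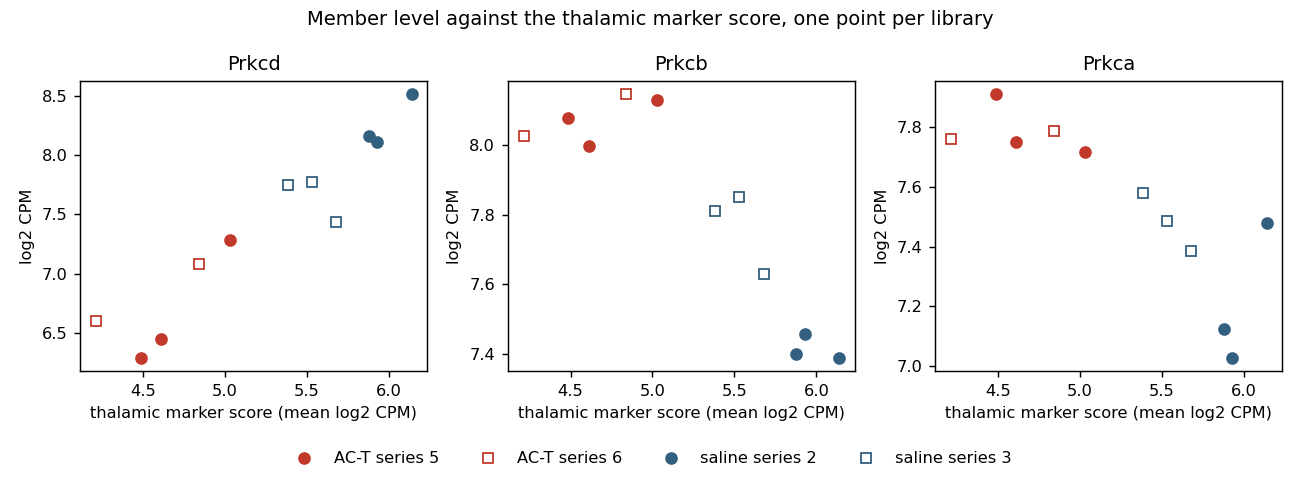
Log2 CPM of Prkcd, Prkcb and Prkca (vertical axes) against the thalamic marker score (horizontal axes, mean log2 CPM of 14 genes), 1 point per library. Prkcd is higher where the score is higher, also among the AC-T and among the saline libraries, with scores of 4.21 to 5.03 after AC-T and 5.38 to 6.14 after saline.

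All CA1, CA3 and dentate markers were above 0 in every library. Of 7 CA3 and 7 dentate granule markers edgeR called 0, with 2 in each list at an unadjusted p under 0.05. Of 7 oligodendrocyte, 8 microglial and 5 choroid plexus markers it called 0, with 0 at an unadjusted p under 0.05. Choroid plexus markers summed to 78.0 to 5436 CPM after AC-T and 16.1 to 5550 CPM after saline. Of 8 markers of GABA neurons 3 were called higher and 1 lower (50%), and of 7 astrocyte markers 1 was called lower (14.3%), where 8.47% of all genes were called. Library totals ran from 28.3 M to 31.7 M counts after AC-T and from 23.4 M to 32.1 M after saline. Xist, which coats the inactive X chromosome of females, was listed at 0 in saline 300 and at 13057 or more counts in the other libraries. All 4 called members passed without saline 300 (highest adjusted p = 0.0403).

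The genes whose log2 CPM followed a called member most closely over the 11 libraries were taken from 12366 tested genes, as a description without a test. For Prkca these were Neurod6, a transcription factor of pyramidal neurons (Pearson r = 0.978), Ociad2 (0.970) and the adaptor Nck2 (0.965). For Prkcb they were the lysosomal protein gene Pld3 (0.981) and Wdr17 (0.969). For Prkcd they were Synpo2, an actin-binding protein gene that is also in the thalamic list (0.989), Plekhg1 (0.984) and the GTPase gene Rab37 (0.983). For Prkch they were Cox6a2, a subunit of cytochrome oxidase (0.956), Slc35e4 (0.953) and Heg1, a receptor of endothelial junctions (0.949). With the group means removed, r was 0.96 for Synpo2 and Prkcd, 0.93 for Neurod6 and Prkca, and 0.93 for Pld3 and Prkcb. With Prkch it was 0.87 for Cox6a2, 0.86 for Slc35e4 and 0.95 for Heg1. Heg1 itself was not called (edgeR adjusted p = 0.106). The libraries differ in depth and in tissue markers, so the values do not show shared control. Among the members themselves, r with the group means removed was highest for Prkca with Prkce (0.77) and Prkch with Prkcq (0.68), and lowest for Prkch with Prkci (-0.65).

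The genes around the kinases moved in both directions. Of 68 tested genes in the 6 pathway lists, 10 were called higher and 6 lower, or 23.5% against 8.47% of all genes, with a median log2 fold change of 0.020. The lists were chosen with earlier results of these data known, so these shares only describe them. Of 14 genes of Gq and phospholipase C, 2 were higher and 2 lower. Plcb1, the phospholipase of muscarinic and metabotropic glutamate receptors in the forebrain, rose to 176 ± 9.78 CPM after AC-T, against 120 ± 12.9 CPM after saline (SD, n = 5 and 6; log2 0.55, edgeR adjusted p = 0.00248). Gnaq, the alpha subunit of Gq, rose by log2 0.26 (adjusted p = 0.0259). Plcb4, a related phospholipase of thalamus and cerebellum, fell to 63.7 ± 10.4 CPM, against 108 ± 25.3 CPM after saline (SD, n = 5 and 6; adjusted p = 0.0175). Plch1, a calcium-sensitive phospholipase, fell as well (11.5 ± 2.07 against 17.8 ± 2.63 CPM, adjusted p = 0.0141). The groups did not overlap for Plcb1, Plcb4 and Plch1, while those of Gnaq overlapped narrowly.

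Of 11 diacylglycerol kinases and lipases, which remove or convert diacylglycerol, 2 were higher and 1 lower. Dgkg stood at 90.7 ± 12.1 CPM after AC-T and 64.4 ± 7.75 CPM after saline, and Dgkb at 121 ± 12.1 and 88.9 ± 13.4 CPM (SD, n = 5 and 6; edgeR adjusted p = 0.0145 and 0.0268). Dgka fell by 0.25 on the log2 scale (adjusted p = 0.0363). Of 11 other proteins with a diacylglycerol-binding C1 domain, 2 were higher and 2 lower. Chn1, the Rac regulator chimaerin, rose by log2 0.39 and Unc13b, a vesicle priming factor, by log2 0.23 (adjusted p = 0.0290 and 0.0452). Unc13c, a related priming factor, fell to 66.3 ± 27.5 CPM, against 145 ± 35.96 CPM after saline (SD, n = 5 and 6; adjusted p = 0.0254). Prkd2, of the protein kinase D family, fell by 0.45 on the log2 scale (adjusted p = 0.0355).

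Of 17 priming kinases, phosphatases and scaffolds, 2 were higher and 1 lower. Akap5, which anchors protein kinases A and C and calcineurin at postsynaptic sites, rose 1.51-fold to 57.2 ± 7.41 CPM, against 37.8 ± 3.93 CPM after saline (SD, n = 5 and 6; edgeR adjusted p = 0.00454), without overlap. Pdpk1, the kinase that phosphorylates the activation loop of protein kinase C, rose by log2 0.22 (adjusted p = 0.0220). Akap12, another scaffold, fell by 0.50 on the log2 scale (adjusted p = 0.0416). Of 12 substrates 2 were higher, Nrgn, the calmodulin-binding neurogranin (log2 0.44, adjusted p = 0.0157), and Add1, the cytoskeletal adducin (log2 0.19, adjusted p = 0.0371). Of the 3 related Pkn kinases 0 passed in edgeR and 0 had an unadjusted p under 0.05. Pkn2 had a log2 fold change of -0.026 (adjusted p = 0.854), and Pkn3 was listed at 0 in 2 libraries. Of the 16 called pathway genes, 14 lost the call without AC-T series 5 or without saline series 2, and both times Plcb1 and Akap5 passed. On omission of any 1 library, Plcb1, Plch1, Dgkg, Akap5 and Nrgn passed each time. Each of the other 11 lost the call at least 1 time. Over the 11 omissions, Unc13b passed in 1, Akap12 in 2, Prkd2 in 3, Dgka and Add1 in 4, and Dgkb and Chn1 in 5. Gnaq passed in 6, Unc13c in 7, Pdpk1 in 8 and Plcb4 in 10. Unc13b also lost the call with each other edgeR scaling tried. Add1 lost it with upper-quartile scaling and library totals, and Dgka with library totals. The count over the 68 genes was 5 when AC-T 502 was left out, 7 when AC-T 602 was, 8 when AC-T 600 was, 10 when AC-T 501 or saline 202 was, and 9 when saline 203 or saline 300 was. With the thalamic score as a covariate it was 0 in edgeR, where 3 had an unadjusted p under 0.05.

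**Figure D4:**
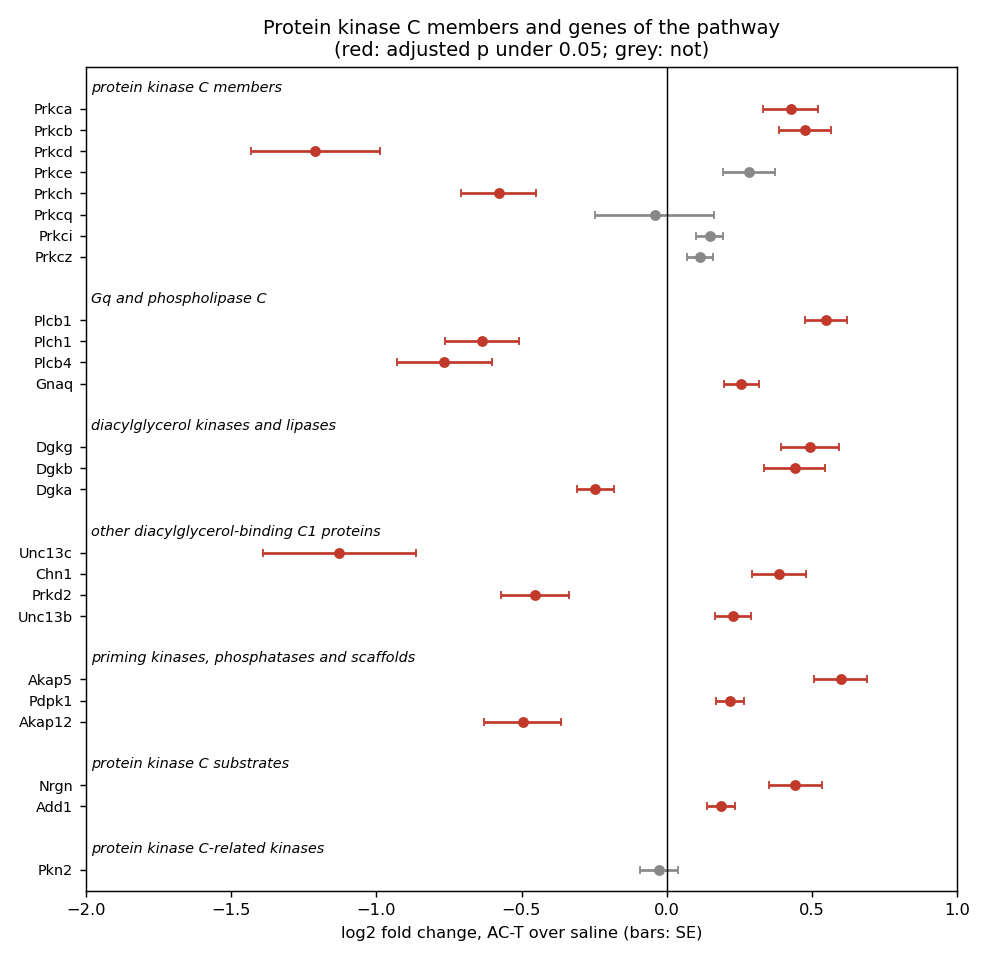
Log2 fold change of AC-T over saline (horizontal axis, bars are SE) for the 8 members and the named genes of 6 pathway lists, with genes past an adjusted p of 0.05 in red. Pkn3, at -0.49 ± 0.97 (SE), is not drawn. Prkcd lies at -1.21 and Unc13c at -1.13, and Akap5 and Plcb1 lie at 0.60 and 0.55.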

How the data were processed

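Polyadenylated RNA was sequenced from 5 AC-T and 6 saline hippocampal punches. The series states 6 samples in each group, and the sixth of AC-T was not analysed here. The submitters' processing notes name FastQC 0.11.9, Salmon 1.9.0 and the build GRCm39. The annotation release and the step that wrote the table are not given in the sources used here. The values deposited by the authors are expected counts per gene, not normalized (13.7% to 14.7% of values per library have a fraction), and were rounded to whole numbers. Salmon divides reads shared by similar genes between them.

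The test was the 2-sided quasi-likelihood test of edgeR 4.0.16, run under R 4.3.3 with trimmed mean of M values scaling and treatment as the only term. Low genes were removed by filterByExpr at 10 counts, and p-values were adjusted after Benjamini and Hochberg over the 15353 genes left. CPM and log2 CPM (prior count 2) use these factors. The fit was tested on simulated data drawn with a treatment effect only. These held no series or tissue difference, so that test does not speak to either. Alternatives used limma 3.58.1, DESeq2 1.42.0, other scaling, filters, thresholds and covariates, and left out each library or series. The dissection component is the first principal component of the thalamic, CA1, CA3, dentate and neocortical markers.

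Members and lists were chosen with earlier results of these data known. All 8 members are named, with up to 4 called genes per pathway list (the 2 with the smallest p where none passed), the 3 genes most like each called member (average log2 CPM of at least 1) and the 2 thalamic markers with the smallest p. Of the genes this rule names, 1 is not reported here. Each library is 1 mouse, as the labels number them. Total counts of 23.4 M to 32.1 M per library put at least 192 counts behind every member value.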

Additional observations from a re-analysis of the deposited data

Results flagged for a closer look

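Prkcq stood at 31.2 CPM in saline 300, far from the other 5 saline libraries, which lay between 13.04 and 19.4 CPM. The gap to the nearest of them was 0.649 of the range of the group. Saline 300 is also the library with Xist listed at 0. The 8 members in 2 groups gave 16 such checks, and chance sets apart about 1 group in 20.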

How the results depend on the processing

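The 4 called members passed under other scaling factors, filters on low counts, a robust dispersion, DESeq2, limma-voom and unrounded values. Each kept its direction under all 30 alternatives. Those that changed only the threshold share the main fit, so their direction could not turn. With the thalamic score Prkcd was at -0.034 ± 0.31 on the log2 scale (SE), where the sign says little. With DESeq2 2559 genes passed, at an adjusted p under 0.1 2295, and at 0.01 228, with 0 members in edgeR (7 had an unadjusted p under 0.05) and 2 pathway genes. With series as a random effect 293 genes passed, with 2 members (Prkcb and Prkcd) and 3 pathway genes. With the thalamic score 1 gene passed and with the dissection component 0 in edgeR (1173 had an unadjusted p under 0.05), with 0 members (0 and 1 at an unadjusted p under 0.05) and 0 pathway genes (3 and 6) each time. Genes, members and pathway genes called were 549, 2 and 3 without series 2, 317, 0 (4 unadjusted) and 2 without series 5, and 409, 1 and 4 without series 6. On omission of 1 library the ranges were 625 to 1229 genes (625 when AC-T 502 was left out, 681 for AC-T 602, 815 for saline 202 and 832 for saline 300), 3 to 4 members and 5 to 18 pathway genes.

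Signs turned for these log2 fold changes, none of which passed there. With the thalamic score they were 0.081 for Plcb4, 0.019 for Akap12, 0.72 for Pkn3, 0.13 for Synpo2 and 0.063 for Plekhg1. With the dissection component they were 0.21 for Prkcq, -0.00051 for Prkcz, 0.34 for Pkn3 and 0.0027 for Heg1. Prkcq was 0.013 with series as a random effect, 0.27 without series 3, 0.16 without series 5, and between -0.14 and 0.16 on omission of 1 library. Pkn3 was 0.033 without series 2, and Pkn2 was 0.055 without series 3 and between -0.055 and 0.017 on omission of 1 library. The cause was not tested. With the median transcript as length, levels over all libraries were 35.6 CPM per kilobase for Prkca, 83.6 for Prkcb, 85.7 for Prkcd, 94.5 for Prkce, 76.6 for Prkci, 6.66 for Prkcq and 197 for Prkcz. No paired analysis was possible because the mouse numbers of the groups are not shared.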
